A study of Caenorhabditis elegans with 6 samples.

Results

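A set of 9 genes that act in meiotic crossing over were followed in distal gonad arms of Caenorhabditis elegans: him-14, msh-5, cosa-1, zhp-1, zhp-2, zhp-3, zhp-4, rmh-1 and him-6. They were taken from a list of known crossover genes by symbol, and all 9 of 9 were found among the 46934 gene identifiers counted and among the 9787 genes tested. The samples were 3 libraries from wild-type young adults and 3 from animals carrying the sin-3 allele tm1276, all collected 12 h past the L4 larval stage. SIN-3 is the scaffold on which a histone deacetylase complex is built, and the comparison addressed how germline gene expression differs in animals carrying tm1276. Each library pooled gonads of several animals, from which the distal arm alone was taken; it contains dividing and early meiotic germ cells with their somatic neighbours. The labels give no strain name, growth temperature or molecular lesion for tm1276, and nothing says that replicate libraries came from separate cultures, so the p-values reflect only the spread among these libraries, some of which may be technical.

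In meiosis, homologous chromosomes exchange DNA at crossovers, which hold the pair together until it segregates. In C. elegans each chromosome pair usually receives a single crossover, made from 1 of many programmed double-strand breaks during pachytene, a stage found in the distal gonad arm. HIM-14 (MSH4) and MSH-5 form the MutS-gamma complex, which stabilizes the joined DNA intermediates. COSA-1, a cyclin-like protein, marks the sites designated to become crossovers. The RING finger proteins ZHP-3 and ZHP-4 act together in designating crossover sites, and ZHP-1 and ZHP-2 form a second pair that limits crossovers and directs later chromosome remodelling. The BLM helicase HIM-6 and the scaffold RMH-1 act with topoisomerase TOP-3 on the same intermediates, to promote crossovers at designated sites and to dissolve intermediates elsewhere.

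Gene-assigned reads ranged from 24491014 to 30634455 per library, and each crossover gene had between 398 and 4498 reads in each library. The targeted gene sin-3 had 366.8, 358.5 and 369.4 CPM (counts set to the same library size with factors from the trimmed mean of M values, TMM) in wild-type replicates 1 to 3. It had 179.5, 175.5 and 184.1 CPM in mutant replicates 1 to 3, so the libraries separated by label. As the labels give no lesion, they predict no sin-3 level, and this difference alone does not verify them. Germ cell markers were abundant in all libraries, with summed levels over 15 genes of 7066 to 7605 CPM in wild-type libraries and 6509 to 6753 CPM in the mutant. Over all genes tested 31.3% were called higher and 30.7% lower by edgeR. Of the 15 germ cell markers 1 was called higher and 6 lower (0 and 6 by DESeq2), and of 9 proximal oocyte markers 2 were higher and 5 lower. Transcripts of these oocyte markers were abundant too, with a summed level of 8311 to 8592 CPM in wild-type libraries and 6695 to 7188 CPM in the mutant. Of 8 sperm markers 1 was tested, spe-41, at 5.18 CPM in wild type, and it was called neither by edgeR (raw p not under 0.05) nor by DESeq2. Markers of the somatic gonad were more often higher in the mutant. Of 16 such markers 14 were tested, 8 were higher and 0 lower by edgeR (9 and 0 at an unadjusted p under 0.05, 8 and 0 by DESeq2), and their summed level was 1828 to 2089 CPM in wild-type libraries and 1976 to 2084 CPM in the mutant, most of it from fln-1. Of 5 muscle and 4 tested intestine markers edgeR called 0, against 1 and 0 at an unadjusted p under 0.05 and 1 each by DESeq2. Of 2 tested hypodermis markers 1 was higher, and of 3 tested neuron markers 1 was higher and 1 lower (0 and 1 by DESeq2). The sheath genes lim-7, inx-8, inx-9 and ceh-18 went from 2.42 ± 0.535, 52.6 ± 8.52, 12.6 ± 1.14 and 0.940 ± 0.0812 CPM in wild type to 6.19 ± 0.588, 77.6 ± 6.49, 31.2 ± 3.21 and 2.15 ± 0.631 CPM in the mutant (SD, n = 3). The gene ceh-18 lies on the X chromosome, as does lam-2, a further marker called higher and named for its chromosome. Of 1245 X-linked genes tested, 61.5% were called higher and 2.97% lower. The distal tip cell ligand gene lag-2 was near the detection floor in both genotypes, and its level is not compared. The part of these differences in the results below was not tested, and in such bulk samples fewer cells of a type and less RNA per cell cannot be told apart.

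Crossover gene transcripts were mostly lower in the mutant, but by very different amounts. The MutS-gamma gene him-14 fell 2.05-fold, the helicase gene him-6 1.64-fold and the RING finger gene zhp-1 1.59-fold, while msh-5 and zhp-3 fell 1.24-fold and 1.16-fold. The fall of rmh-1 was 1.08-fold and turned to a value above 0 that missed the test when libraries were scaled by their totals. The RING finger gene zhp-4 rose, and cosa-1 and zhp-2 did not pass the test. Thus 6 of 9 genes were called lower and 1 higher at an adjusted p under 0.05 (edgeR quasi-likelihood test, Benjamini-Hochberg adjustment over all genes tested). The values of 1 genotype lay above all of the other for 8 of the 9 genes, as for 67.8% of all genes tested. Of all genes tested 30.7% were called lower, 31.3% higher and 62.0% either way. Among the 3913 genes whose mean level lay between those of the lowest and highest crossover gene, 45.8% were called lower and 26.9% higher. No test of the 9 genes against these shares was made. The median log2 fold change of the 9 genes was -0.21, against 0.028 over all genes tested, -0.035 over 7987 autosomal protein-coding genes and -0.093 over the genes of like level. Under scaling by library totals the median of the 9 genes was -0.048 and that of all genes tested 0.19. The summed level of the 9 genes was 752.2 to 757.6 CPM in wild-type libraries and 555.0 to 577.1 CPM in the mutant. Of the mean differences, him-6 gave 73.4 CPM, him-14 gave 50.3 CPM and msh-5 gave 34.8 CPM.

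**Figure D1:**
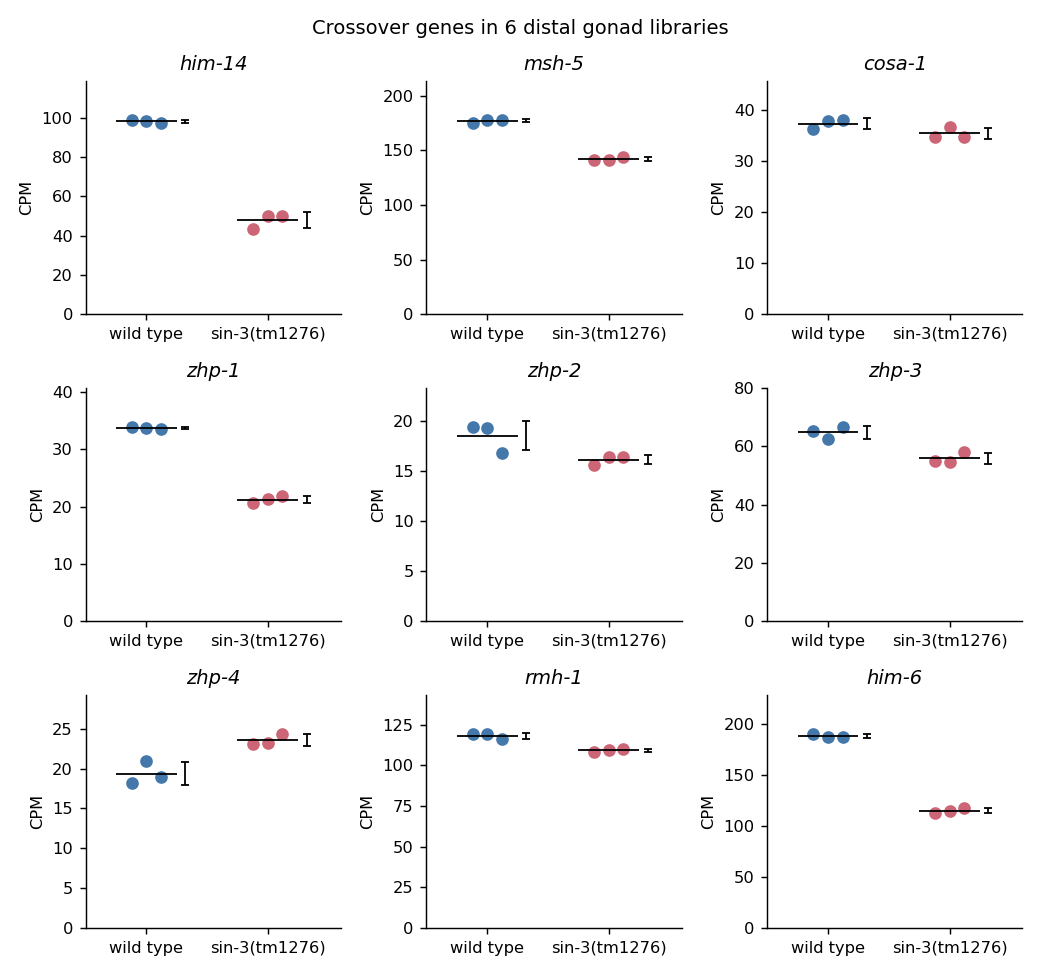
TMM-scaled level in CPM of each of the 9 crossover genes in the 3 wild-type (blue) and 3 sin-3(tm1276) (red) libraries. Points are libraries, horizontal lines are means and the bars beside them are ± 1 SD; each vertical axis starts at 0. The mutant points of him-14, at 43.3 to 50.2 CPM, lie near the middle of the axis while its wild-type points are at 97.4 to 98.9 CPM, zhp-4 is the gene whose mutant points lie above the wild-type ones, and those of cosa-1 overlap.

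The MutS-gamma partners moved unequally. The gene him-14 (WBGene00001872, chromosome II, 7065020 to 7069966 in WBcel235, minus strand) had 98.9, 98.3 and 97.4 CPM in wild-type replicates 1 to 3 and 43.3, 50.2 and 50.2 CPM in mutant replicates 1 to 3. Every mutant library was thus far below every wild-type library, with mutant replicate 1 the lowest. The log2 fold change was -1.03 ± 0.053 (SE), with a 95% interval of -1.147 to -0.920 and an adjusted p of 1.33e-09, and 88.6% of tested genes had a smaller absolute change. Without mutant replicate 1 it was -0.969. The opposite-strand gene nos-2 overlaps 154 exonic bases of him-14 and was at 64.6 ± 1.72 CPM in wild-type libraries and 67.0 ± 1.12 CPM in the mutant (SD, n = 3), with an adjusted p of 0.285. Whether reads were counted by strand is not stated, so those of overlapping genes on opposite strands may not have been told apart.

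The partner gene msh-5 (WBGene00003421, chromosome IV, 13155233 to 13164054, plus strand) had 175.5, 177.9 and 177.9 CPM in wild-type libraries and 141.4, 141.2 and 144.2 CPM in the mutant. Its groups did not overlap and the spread within each was narrow. The log2 fold change was -0.32 ± 0.032 (SE), with a 95% interval of -0.384 to -0.248 and an adjusted p of 1.04e-06. Under scaling by library totals it was -0.149, outside that interval, at an adjusted p of 0.00182. The TMM-scaled intervals of him-14 and msh-5 lie apart. The ratio of the partners within a library does not depend on how libraries are scaled. Per kb of exonic length, him-14 over msh-5 was 0.904, 0.887 and 0.879 in wild type and 0.492, 0.570 and 0.558 in the mutant. Wild-type libraries thus held the 2 transcripts at close to equal levels, and mutant libraries held less of him-14 in all 3 cases. The exact two-sided permutation p was 0.1 for this ratio, the smallest that 3 against 3 libraries allow, and the same p was found for each of the 7 ratios computed (adjusted p = 0.1).

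The crossover-site cyclin gene cosa-1 (WBGene00022172, chromosome III, 2726116 to 2731670, plus strand) differed least of the 9 genes with TMM scaling, but more than zhp-2, zhp-3 and rmh-1 with scaling by library totals. It had 36.2, 37.8 and 38.1 CPM in wild-type libraries and 34.7, 36.8 and 34.8 CPM in the mutant, and the groups overlapped. Its log2 fold change was -0.077 ± 0.056 (SE), with an adjusted p of 0.244 and a 95% interval of -0.196 to 0.043, so a fall of the size of msh-5 with the same scaling lies outside the interval. When libraries were scaled by their totals the value was 0.089, with an adjusted p of 0.189. Relative to msh-5 in the same library, cosa-1 went from 0.70 ± 0.013 to 0.827 ± 0.034 (SD, n = 3) per kb. The whole of cosa-1 lies within the span of cox-6B on the same strand, with no shared exon. That cytochrome oxidase subunit gene went from 236.3 ± 1.83 to 353.4 ± 19.3 CPM (SD, n = 3) in the same libraries, and its part in the cosa-1 count was not tested.

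Among the 4 RING finger genes, 2 fell, 1 rose and 1 was not called, and each pair held unequal changes. In the crossover-designating pair, zhp-3 (WBGene00006976, chromosome I, 8529376 to 8531342, minus strand) had 65.1, 62.5 and 66.7 CPM in wild-type libraries and 55.0, 54.5 and 58.0 CPM in the mutant. The groups did not overlap, and the log2 fold change was -0.21 ± 0.046 (SE) at an adjusted p of 0.00102. The call ended when libraries were scaled by their totals, at -0.048 with an adjusted p of 0.42.

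Its partner zhp-4 (WBGene00012678, chromosome V, 19099035 to 19101786, minus strand) had 18.2, 21.0 and 18.9 CPM in wild-type libraries and 23.1, 23.3 and 24.4 CPM in the mutant. All mutant libraries were above all wild-type libraries, by a small margin in the case of wild-type replicate 2. The log2 fold change was 0.29 ± 0.077 (SE), a 1.22-fold rise with an adjusted p of 0.00495, and it was 0.453 under scaling by library totals. The ratio zhp-3 over zhp-4 went from 4.59, 3.82 and 4.53 to 3.06, 3.0 and 3.05 per kb. The size of this ratio, but not its relative change between genotypes, depends on the exonic length used for zhp-4. That length was 1657 bases, or 1217 without bases shared with a same-strand gene. Of the exonic bases of zhp-4, 440 are shared with the same-strand gene pro-3, which rose from 125.5 ± 2.83 to 159.2 ± 2.00 CPM (SD, n = 3; adjusted p = 7.89e-07). Reads over several genes were kept in a line apart from the genes, and the part of pro-3 in the zhp-4 count was not tested.

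In the second pair, zhp-1 (WBGene00018867, chromosome I, 5366944 to 5367986, minus strand) had 34.0, 33.8 and 33.5 CPM in wild-type libraries and 20.6, 21.3 and 21.8 CPM in the mutant. The groups were well separated, at a log2 fold change of -0.67 ± 0.062 (SE), and the adjusted p was 5.01e-07. No annotated gene overlaps zhp-1.

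Its partner zhp-2 (WBGene00008387, chromosome I, 8485810 to 8487062, minus strand) had 19.4, 19.3 and 16.9 CPM in wild-type libraries and 15.6, 16.4 and 16.5 CPM in the mutant. The groups did not overlap, but wild-type replicate 3 lay close to the mutant libraries. The log2 fold change of -0.20 ± 0.084 (SE) missed the threshold, with an adjusted p of 0.0546, and without wild-type replicate 3 it was -0.269 with an adjusted p of 0.0178. The ratio zhp-1 over zhp-2 was 1.92, 1.92 and 2.19 per kb in wild type and 1.45, 1.43 and 1.46 in the mutant. Its size, but not its relative change, depends on the zhp-2 length used, 933 bases or 661 without shared ones. The same-strand gene D1081.6 shares 272 exonic bases with zhp-2 and went from 7.90 ± 0.534 to 9.98 ± 0.572 CPM (SD, n = 3). Both zhp-2 and zhp-3 lie near sin-3 on chromosome I, at distances of 60759 and 104325 bases, whereas zhp-1 and rmh-1 are 3048830 and 2840067 bases from it.

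Of the helicase group, him-6 (WBGene00001865, chromosome IV, 12490791 to 12495298, plus strand) had 190.8, 187.6 and 186.9 CPM in wild-type libraries and 113.0, 114.3 and 117.6 CPM in the mutant. The groups were far apart and each was narrow. The log2 fold change was -0.71 ± 0.033 (SE), with an adjusted p of 5.87e-10, and it lay between -0.546 under scaling by library totals and -0.741 with a gene length offset.

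The scaffold gene rmh-1 (WBGene00019712, chromosome I, 5573214 to 5576749, plus strand) had between 115.9 and 119.5 CPM in the 3 wild-type libraries, with replicate 3 the lowest, and 108.2, 109.5 and 109.7 CPM in the mutant. The groups did not overlap and the difference was small, a log2 fold change of -0.11 ± 0.034 (SE) at an adjusted p of 0.00928, which turned to 0.052 with an adjusted p of 0.232 under scaling by library totals. The call also ended with TMM factors from autosomal genes, at -0.064, and when genes under a mean of 5 CPM were left out, at -0.046. Independent of scaling, rmh-1 over him-6 was 0.671, 0.680 and 0.665 per kb in wild type and 1.03, 1.03 and 1.00 in the mutant. Transcripts of the helicase thus exceeded those of the scaffold per length in wild type, and both were at about the same level in the mutant.

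Other genes of the same protein group were set beside these. The paralogous scaffold gene rmh-2 went from 68.0 ± 0.682 to 44.0 ± 1.51 CPM (SD, n = 3), which gives a log2 value of -0.63 ± 0.045 (SE) at an adjusted p of 3.75e-08. Its ratio over rmh-1 went from 0.831 ± 0.013 to 0.582 ± 0.016 (SD, n = 3) per kb. The topoisomerase gene top-3, named here for its place in the group, had a log2 fold change of -0.22 with an adjusted p of 0.000684. Its ratio over him-6 went from 0.384 ± 0.0094 to 0.539 ± 0.0053 (SD, n = 3). The groups did not overlap in any of the 7 ratios, whose pairs were chosen with earlier results of these data known. For single genes the groups did not overlap in 67.8% of all genes tested. No such share was computed for ratios of other gene pairs.

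**Figure D2:**
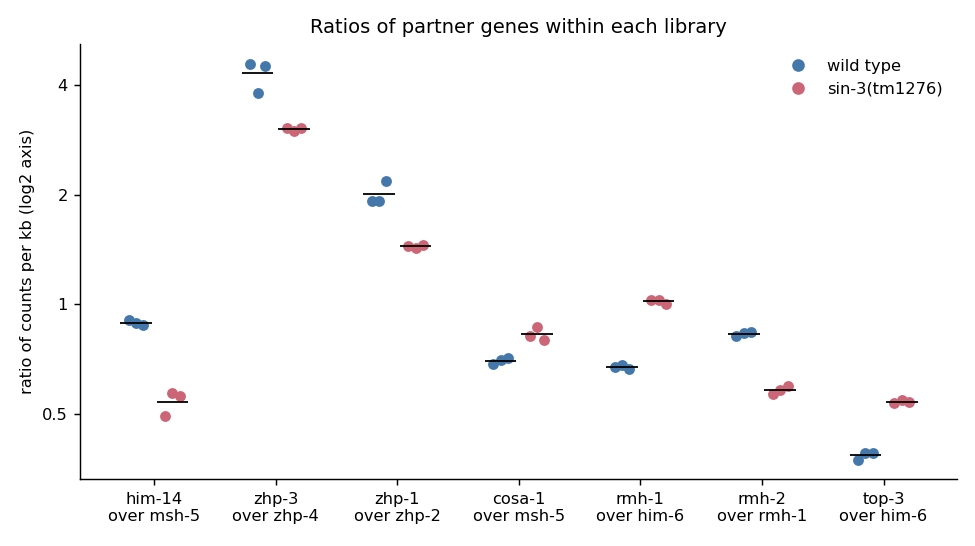
Ratio of counts per kb of exonic length between partner genes within each library, on a log2 axis. The lengths of zhp-2 and zhp-4 include bases shared with same-strand genes. Points are the 3 wild-type (blue) and 3 sin-3(tm1276) (red) libraries and lines are means; him-14 over msh-5 went from 0.890 to 0.540, zhp-3 over zhp-4 from 4.32 to 3.04 and rmh-1 over him-6 from 0.672 to 1.02.

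Levels of different genes were compared as CPM per kb of exonic length. In wild type him-6 was highest at 60.2 ± 0.666, followed by zhp-3 at 50.1 ± 1.66, msh-5 at 42.0 ± 0.324, rmh-1 at 40.4 ± 0.657 and zhp-1 at 39.8 ± 0.291 (SD, n = 3). Below these came him-14 at 37.4 ± 0.270, cosa-1 at 29.4 ± 0.775, zhp-2 at 19.9 ± 1.57 and zhp-4 at 11.7 ± 0.872 CPM per kb (SD, n = 3). Of the neighbours in this order, rmh-1 and zhp-1 overlapped in their library values. In the mutant zhp-3 was highest at 43.2 ± 1.46, followed by rmh-1 at 37.4 ± 0.281, him-6 at 36.7 ± 0.748, msh-5 at 33.7 ± 0.407 and cosa-1 at 27.9 ± 0.913 CPM per kb (SD, n = 3). Then came zhp-1 at 25.0 ± 0.748, him-14 at 18.2 ± 1.5, zhp-2 at 17.3 ± 0.481 and zhp-4 at 14.2 ± 0.440 (SD, n = 3). Here rmh-1 overlapped him-6, and him-14 overlapped zhp-2. The first place thus went from him-6 to zhp-3, and him-14 moved from the middle of the order to the level of the lowest genes. When exonic bases shared with a same-strand gene were left out of the length, an alternative chosen after seeing the data, zhp-2 was at 28 in wild type and 24.4 in the mutant. In the same way zhp-4 was at 15.9 and 19.4 CPM per kb, which in the mutant placed both above him-14, so the lower end of the order depends on the length used.

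**Figure D3:**
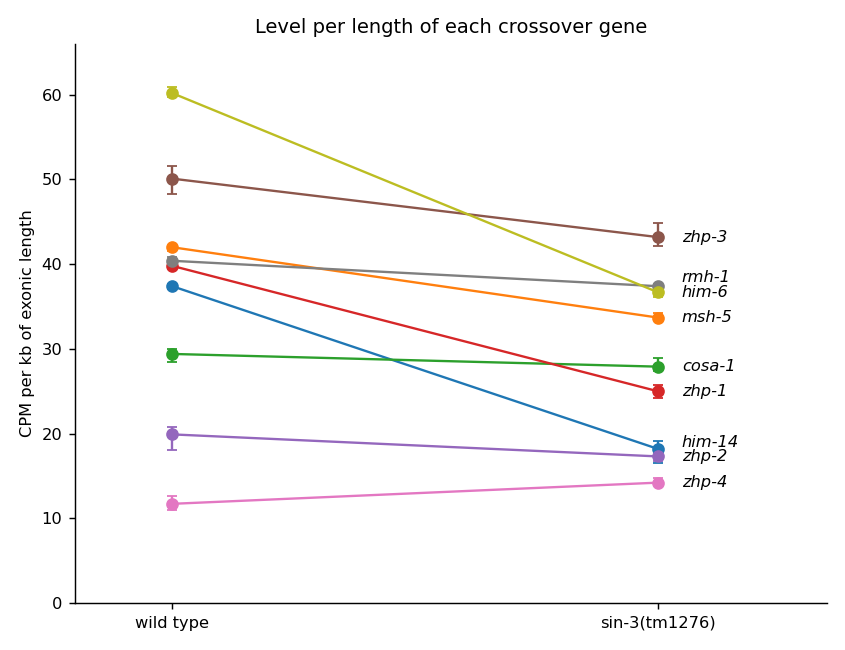
Level in CPM per kb of exonic length of each crossover gene in wild type and in sin-3(tm1276). Points are means of 3 libraries, bars span the lowest and highest library, and lines join the same gene; him-6 goes from 60.2 to 36.7 and him-14 from 37.4 to 18.2, while rmh-1 and cosa-1 are nearly level.

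The authors' deposited table gave the same direction for each of the 9 genes. In the authors' deposited table the log2 fold change was -1.061 for him-14, -0.743 for him-6 and -0.687 for zhp-1, and 0.241 for zhp-4. For zhp-2 the authors' deposited table gave -0.220 with an adjusted p of 0.0372, below the threshold that the edgeR value missed. For cosa-1 the authors' deposited table gave -0.107 with an adjusted p of 0.179.

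Related genes of meiotic recombination were also more often lower than higher with TMM scaling, but not when libraries were scaled by their totals. Over 6 lists with 65 genes, all of them tested, 35 (53.8%) were lower, 14 (21.5%) higher and 16 not called. Their median log2 fold change was -0.18. Of genes within the crossover genes' range of mean level 45.8% were lower and 26.9% higher, and of all genes tested 30.7% and 31.3%. That range, 17.4 to 160 CPM, was set from the 9 crossover genes, and some of the 65 genes lie outside it. Examples, named for their levels, are msh-6 at 386.2 CPM and rip-1 at 1.75 CPM in wild type. Neither the 65 genes nor the single lists below were tested against these shares. Under scaling by library totals 22 of the 65 genes were lower and 26 higher, at a median of -0.010. All genes tested then had a median of 0.19, and their shares called lower and higher went from 30.7% and 31.3% to 19% and 45.4%. Of 9 genes that process crossover intermediates, 5 fell and 2 rose, at a median of -0.22. Those with the smallest p were rmh-2 and the exonuclease gene exo-1, which went from 96.6 ± 4.21 to 65.7 ± 1.88 CPM (SD, n = 3). Both genes that rose, named with their values known, were the nuclease genes mus-81 and gen-1, with log2 fold changes of 0.29 and 0.14.

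Among 6 mismatch repair and RecQ relatives of the crossover proteins 4 fell and 0 rose by edgeR, at a median of -0.15; at an unadjusted p under 0.05 there was 1 higher gene, and by DESeq2 0. The MutL gene pms-2 went from 150.4 ± 2.68 to 90.1 ± 5.90 CPM, and msh-2, a MutS relative of him-14 and msh-5, from 220.3 ± 3.93 to 190.5 ± 1.93 CPM (SD, n = 3). The msh-2 call ended under scaling by library totals, at -0.043 with an adjusted p of 0.306. The other RecQ helicase genes, wrn-1 and rcq-5, named after their values were seen, had log2 fold changes of 0.078 and -0.033 and were not called, against -0.71 for him-6.

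Of 11 genes of meiotic double-strand break formation, 8 fell and 3 rose by edgeR, at a median of -0.32, and by DESeq2 8 were lower and 0 higher. The nuclease gene mre-11 went from 192.4 ± 11.3 to 132.7 ± 2.85 CPM, and him-5, which promotes breaks on the X chromosome, from 26.7 ± 0.490 to 13.9 ± 0.661 CPM (SD, n = 3). Of 10 genes of strand exchange and its regulators 6 fell and 1 rose by edgeR, at a median of -0.26, and by DESeq2 6 were lower and 0 higher. The BARD1 homologue brd-1 had a log2 fold change of -0.54 ± 0.040 and the Rad54 homologue rad-54.L one of -0.46 ± 0.042 (SE).

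Of 16 axis and synaptonemal complex genes 6 fell and 4 rose, at a median of 4.5e-05. The Skp1-related genes skr-1 and skr-2 were at -0.97 ± 0.039 and -0.65 ± 0.035 (SE) on the log2 scale, and as close neighbours in sequence their counts are less certain. The higher ones, named with their values known, were the HORMA domain genes him-3, htp-1 and htp-2 and the cohesin gene coh-4. The cohesin gene coh-3, named for comparison with coh-4, had a log2 fold change of -0.027 and was not called. How well reads of htp-1 and htp-2, or of coh-3 and coh-4, were told apart was not tested. Of 13 genes of pairing, surveillance and meiotic kinases 6 fell and 4 rose, at a median of -0.029. The ATPase gene pch-2 had the largest change of all 65, from 98.3 ± 6.5 to 34.7 ± 2.57 CPM (SD, n = 3). The pairing centre gene zim-2 went from 92.9 ± 1.27 to 70.2 ± 2.48 CPM (SD, n = 3). The kinase gene cdk-2, whose product acts with COSA-1 and which is named for that reason, had a log2 fold change of 0.20 with an adjusted p of 0.00177.

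**Figure D4:**
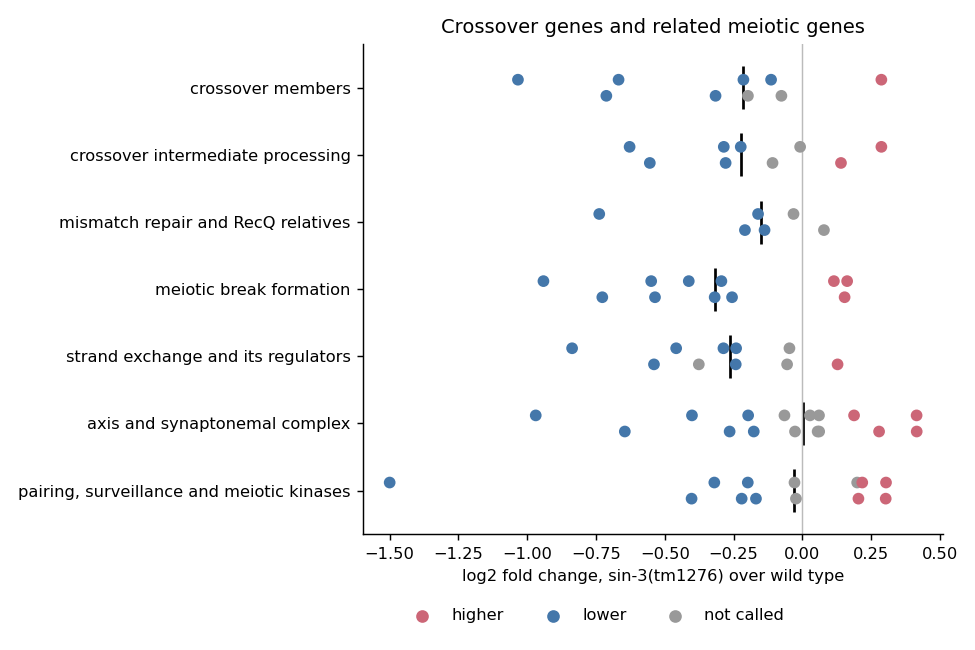
Log2 fold change (sin-3(tm1276) over wild type) of the 9 crossover genes and of 65 genes in 6 related lists. Each point is a gene, coloured by its call at an adjusted p under 0.05, its height within a row has no meaning, and black bars are list medians; they run from -0.32 for break formation to 4.5e-05 for axis and synaptonemal complex genes.

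Other genes with like profiles over the 6 libraries were sought among named protein-coding genes within 2-fold of each crossover gene's mean CPM, by the Euclidean distance between centred log2 CPM values. The nearest to him-14 was frm-10, at a distance of 0.0972, with 97.0 CPM in wild-type libraries and 47.9 CPM in the mutant. The nearest to him-6 was pptr-2, at 0.0444, with 136.9 and 83.9 CPM, and the nearest to zhp-1 was chdh-1, at 0.0758, with 59.5 and 37.9 CPM. For msh-5 it was ess-2 at 0.0253, for rmh-1 cdkr-3 at 0.0322, for zhp-3 wht-2 at 0.038 and for cosa-1 aak-1 at 0.0471. For zhp-2 it was lpd-2 at 0.1 and for zhp-4 the histone gene his-5 at 0.0932, which has close copies and a less certain count. Between 710 and 1907 genes were searched for each crossover gene.

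**Figure D5:**
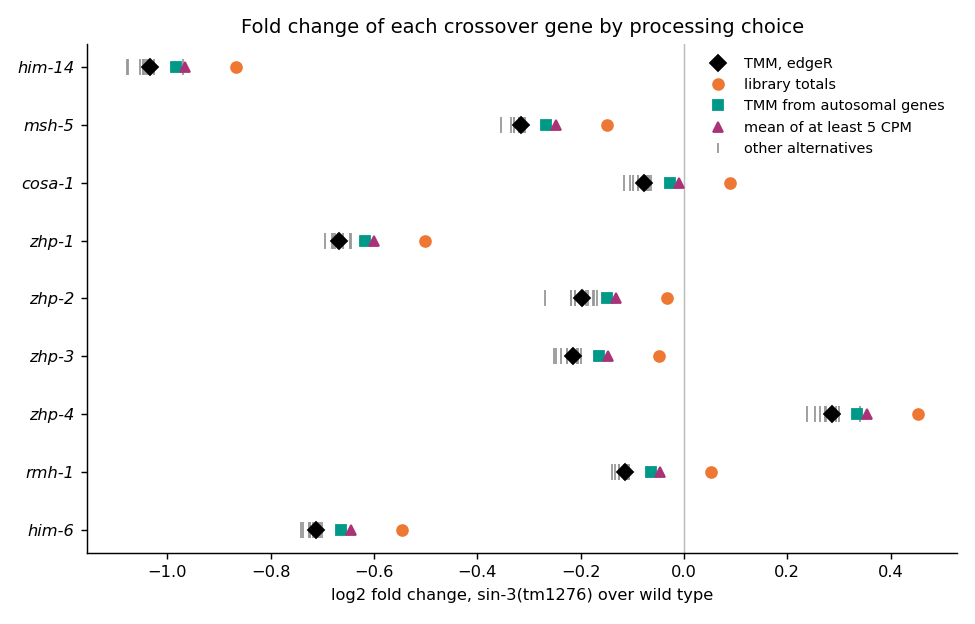
Log2 fold change (sin-3(tm1276) over wild type) of each crossover gene under each processing choice. Black diamonds are the reported values, orange circles scaling by library totals, green squares TMM factors from autosomal genes, purple triangles the fit without genes under a mean of 5 CPM, and grey ticks the other alternatives; him-14, him-6 and zhp-1 stay below -0.5 throughout, and cosa-1 and rmh-1 cross 0 under scaling by library totals.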

How the data were processed

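The authors deposited whole-number read counts per gene for each library, not normalized. STAR 2.7.3a, HTSeq 0.7.2, fastp 0.20.1 and DESeq2 1.36.0 are named, per the submitters' processing notes, but not their roles. Sources used here give neither the build nor the annotation nor the strand setting. Per the labels' protocols, total RNA was depleted of ribosomal RNA and made into stranded libraries. The authors also deposited a table of log2 fold changes with standard errors and p-values, per the file headers. Lines that name no gene held 8.73% to 10.9% of counted reads and were left out. Of 46934 identifiers, 46923 matched the Ensembl annotation of WBcel235, the source of names, coordinates and exonic lengths; these coordinates belong to the identifier, not to the authors' alignment.

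Differences in count were tested with edgeR 4.0.16 under R 4.3.3 (filterByExpr, TMM, robust quasi-likelihood F test, Benjamini-Hochberg adjustment over 9787 genes, threshold 0.05), with both genotypes and no covariate. Intervals of fold changes are 95% and unadjusted. Chi-square per degree of freedom was 12.5 to 18.8 between libraries of a genotype and 72.4 to 130 between genotypes, so none is a copy of another. The scripts were tested on simulated data. The named genes are the 9 members, the 2 genes with the smallest p in each related list, the nearest profile to each member, sin-3 and the sheath and tip cell markers; others are named as such. The members and lists, and the partner pairs, were chosen with earlier results of these data known. Alternatives were library totals, DESeq2 size factors, autosomal TMM, other filters, DESeq2 1.42.0, a gene length offset, a replicate block and leaving out each library. A count of 0 allows 0.0942 to 0.130 CPM (3 counts, counting error only). No sequences are shown.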

Additional observations from a re-analysis of the deposited data

How the results depend on the processing

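The 9 crossover genes gave 1 higher and 4 to 7 lower genes under all alternatives run, against 1 and 6 as reported. The genes him-14, him-6, zhp-1, msh-5 and zhp-4 kept direction and call under all of them. Scaling by library totals moved all fold changes up by a median of 0.17 on the log2 scale. The lower genes then numbered 1864 in place of 3003 over all genes tested, and the related genes numbered 26 higher and 22 lower in place of 14 and 35. Higher genes made up 70.5% of all calls, against 50.5%. The values of cosa-1 and rmh-1 turned to 0.089 and 0.052, below the median of 0.19 of all genes tested under that scaling, and the calls of zhp-3 and msh-2 ended. The rmh-1 call also ended with autosomal TMM factors (adjusted p = 0.109) and when genes under a mean of 5 CPM were left out (adjusted p = 0.232). The gene zhp-2 was called with DESeq2 size factors (adjusted p = 0.0428) and without wild-type replicate 3, but not by the DESeq2 Wald test (adjusted p = 0.0795). With single libraries left out the lower crossover genes numbered 6 to 7. Same-numbered libraries of the genotypes did not deviate together (correlations of -0.26, -0.075 and -0.13). Whether they were collected or prepared together is not stated, and these 3 values cannot decide it. With the replicate number as a block 1 crossover gene was higher and 6 lower, 2906 genes were higher and 2935 lower over all, and no crossover gene changed its call. With 3 libraries a genotype, no permutation p can be below 0.1.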
